A study of Mus musculus with 10 samples.

Results

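MicroRNA genes were followed as a class in the hippocampus of Dp1Yey mice, a Down syndrome model with an extra copy of a long segment of mouse chromosome 16 (Mmu16). The class was defined by symbol. Every gene named Mir or Mirlet7 with a number or letter, host transcripts ending in hg left out, counted when a probe set of the array was annotated to that symbol alone. This gave 298 genes of 19938 measured. RefSeq classed 296 of them as microRNA genes, and the other two, Mirt1 and Mirt2, are long non-coding RNAs that match by name. All 298 were kept in every count. A further 61 probe sets carried a microRNA symbol beside other symbols and named no gene here.

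RNA came from whole hippocampi (left with right) of male mice aged 16 weeks and was hybridised to 1 Affymetrix Mouse Gene 1.0 ST array for each mouse. The 10 arrays came from 5 Dp1Yey mice, which carry the segmental duplication from Lipi to Zbtb21 and so 3 copies of each gene within it, and 5 control littermates with the usual pair of copies. The labels name the substrain C57BL/6N and the study's methods C57BL/6J, which was not settled here. The duplication is carried in every cell. Values are log2 signals from robust multi-array average (RMA), on which a difference of 1 is a doubling, and the number of arrays limits their precision. A gene was called above background when its mean over the 10 arrays exceeded 5.45, the 90th percentile of 1015 olfactory receptor genes, a family used here as a background because it belongs to the nose. All 11 hippocampal markers examined, among them Prox1, Wfs1 and Camk2a, were above this floor.

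MicroRNAs are short RNAs cut in steps from longer transcripts. Drosha with its partner Dgcr8 frees a hairpin in the nucleus, Xpo5 exports it, Dicer1 trims it to a duplex, and an Argonaute protein loads a strand that pairs with messenger RNAs mainly through its seed, the bases near its 5′ end. Let-7 and miR-125 are abundant in mature neurons and hold back genes of the embryonic programme, miR-99 and miR-100 restrain the mTOR pathway, and miR-155 is made by activated immune cells. Whole-transcript labelling starts from long RNA, so a signal at a microRNA gene may come from the primary transcript, its hairpin or the intron of a host gene, and mature microRNAs were not measured.

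The duplicated interval held 4 measured microRNA genes. Mir99a (chr16:77598936-77599000), Mirlet7c-1 (chr16:77599657-77599750) and Mir125b-2 (chr16:77646273-77646343) lie in a cluster on the plus strand, and Mir155 (chr16:84714140-84714204, plus strand) lies distal to it. Coordinates and sequences are from RefSeq on GRCm38.p6 (mm10). The cluster has a counterpart on Mmu9 (Mir100, Mirlet7a-2 and Mir125b-1) and another on Mmu17 (Mir99b, Mirlet7e and Mir125a). Their mature strands are shown because the seed, bases 2 to 8 in capitals, ties each triplicated gene to copies that are not triplicated.
miR-99a-5p (Mir99a, Mmu16): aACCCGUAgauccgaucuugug
miR-100-5p (Mir100, Mmu9): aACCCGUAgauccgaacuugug
miR-99b-5p (Mir99b, Mmu17): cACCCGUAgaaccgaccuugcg
let-7c-5p (Mirlet7c-1, Mmu16): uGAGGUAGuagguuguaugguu
let-7e-5p (Mirlet7e, Mmu17): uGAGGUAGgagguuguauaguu
miR-125b-5p (Mir125b-2, Mmu16, and Mir125b-1, Mmu9): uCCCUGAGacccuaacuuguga
miR-125a-5p (Mir125a, Mmu17): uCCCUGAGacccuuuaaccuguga
miR-155-5p (Mir155, Mmu16): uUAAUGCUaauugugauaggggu
The seed ACCCGUA was shared by 3 measured genes, CCCUGAG by 3 and GAGGUAG by 9, a count without Mirlet7a-2, whose 5p strand was not matched, while UAAUGCU belonged to Mir155 alone among the mature sequences matched. The hairpins of 3 interval genes, shown because hairpin composition is set against the signals further on, follow with both mature strands in capitals.
Mir99a hairpin: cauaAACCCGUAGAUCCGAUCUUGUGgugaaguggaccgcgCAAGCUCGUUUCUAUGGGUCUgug
Mirlet7c-1 hairpin: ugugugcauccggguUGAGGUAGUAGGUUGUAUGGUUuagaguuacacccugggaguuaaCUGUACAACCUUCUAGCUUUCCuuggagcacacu
Mir155 hairpin: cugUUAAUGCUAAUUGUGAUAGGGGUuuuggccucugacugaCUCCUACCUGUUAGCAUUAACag

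None of the 4 interval microRNA genes was called higher in Dp1Yey, and all 4 had means at or below the background floor. Mir99a read 5.21, 5.34, 5.32, 5.20 and 5.33 in Dp1Yey and 5.33, 5.73, 5.19, 5.31 and 5.23 in control mice, so the groups overlapped and control replicate 2 stood above all other mice. Its difference was -0.08 (95% interval -0.27 to 0.10, adjusted p = 0.598 by limma over all genes). Without control replicate 2 it was 0.01. Mirlet7c-1 read 4.71, 4.65, 4.51, 4.68 and 4.47 in Dp1Yey against 4.61, 4.70, 4.56, 4.50 and 4.57 in control mice. The groups lay on each other, with a difference of 0.02 (-0.10 to 0.13, adjusted p = 0.891). Mir125b-2 read between 4.37 and 4.40 in Dp1Yey and between 4.31 and 4.44 in control mice, a difference of 0.01 (-0.06 to 0.07, adjusted p = 0.925). For these 3 genes the upper limits, as fold changes, were 1.07, 1.10 and 1.05, each under the 1.5-fold of the copy number.

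Mir155, at a mean signal below the floor, was called lower in Dp1Yey. It read 4.76, 4.82, 4.80, 4.87 and 4.85 in Dp1Yey and 5.10, 5.07, 4.93, 5.02 and 4.95 in control mice, and the groups did not overlap. The difference was -0.19 (-0.28 to -0.11), a fold change of 0.874, with an adjusted p of 0.0475 by limma. The call was close to the threshold. Leaving out control replicate 3 or 5 kept it (adjusted p = 0.0337 and 0.0428), and leaving out any of the other 8 arrays lost it (adjusted p from 0.0677 to 0.127). It was also lost when arrays were centred on their medians (adjusted p = 0.0673) or on olfactory receptor genes (0.0538), without control replicates 1 and 2 (0.132), with the replicate number as a block (0.133), with arrays' interquartile ranges as covariate (0.497) and by a rank statistic described with the whole class, so that Mir155, at a mean of 4.92 and below the floor, did not pass in 14 of the alternatives. Microglia and leukocyte genes, which mark the cells known to make miR-155, gave 0 calls among 9 measured by limma. Beside 8.75% of all genes, 1 of them was higher at a nominal p (a p before adjustment) under 0.05, and 0 by the rank statistic. Their median difference was 0.05, and their median deviation from the control mean ran from 0.00 to 0.08 in Dp1Yey and from -0.09 to 0.09 in control mice. Their part in the Mir155 result was not tested.

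**Figure D1:**
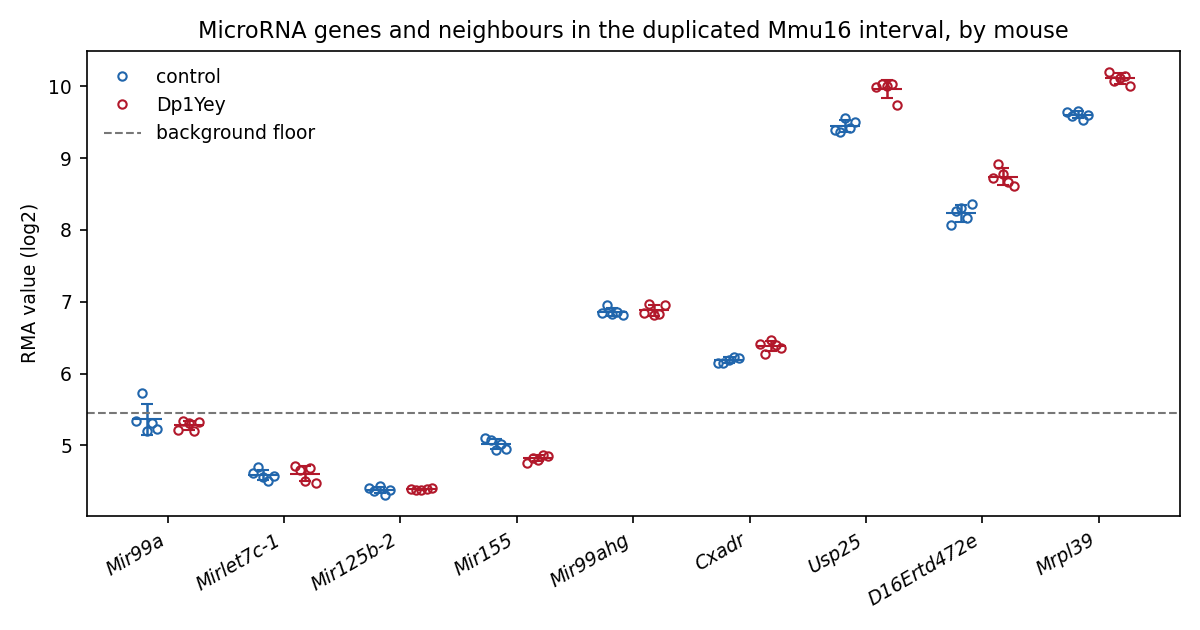
RMA values (log2) of single mice for the 4 interval microRNA genes, the transcript Mir99ahg and 4 neighbouring protein-coding genes, with open circles for mice, horizontal marks for group means and bars for 1 SD (n = 5 per group). The means of the microRNA genes over the 10 arrays are at or below the dashed background floor of 5.45, with Mir99a in control replicate 2 above it at 5.73, and the Dp1Yey mice lie above all control mice in the protein-coding genes only.

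Most neighbours of these genes rose in Dp1Yey. Usp25, a deubiquitinase, rose in Dp1Yey by 0.51 (0.38 to 0.64, adjusted p = 0.00112), a fold change of 1.42, although Dp1Yey replicate 5 lay under the other 4. D16Ertd472e rose by 0.51 and Ncam2, a neural adhesion molecule, by 0.50. Next to Mir155, Mrpl39, a mitochondrial ribosomal protein whose annotated span begins 4 kb beyond the start of Mir155, rose by 0.50, Jam2, a junctional adhesion molecule, by 0.62 and Atp5j, a subunit of ATP synthase, by 0.34. Nrip1, a nuclear receptor corepressor, and Cxadr, a viral receptor and adhesion protein, rose less, by 0.24 and 0.20 (adjusted p = 0.0224 and 0.047), and Cxadr did not pass in 13 of the alternatives tried.

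Mir99ahg, the long transcript named as host of the Mir99a cluster, did not pass the test although its mean of 6.87 was above the floor. It read 6.84, 6.97, 6.81, 6.83 and 6.95 in Dp1Yey and 6.84, 6.95, 6.83, 6.85 and 6.81 in control mice. These values are from the probe set of highest mean among the 4 of Mir99ahg, and the others are not given singly here. The difference of 0.03 had an interval from -0.07 to 0.12, below the log2 value of 1.5, which is 0.58. In this annotation its span (chr16:77329328-77558428) ended before Mir99a, so the cluster lay outside it. Chodl and Tmprss15, at means of 5.06 and 4.55, were below the floor like the microRNA genes and differed by -0.04 and 0.03.

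**Figure D2:**
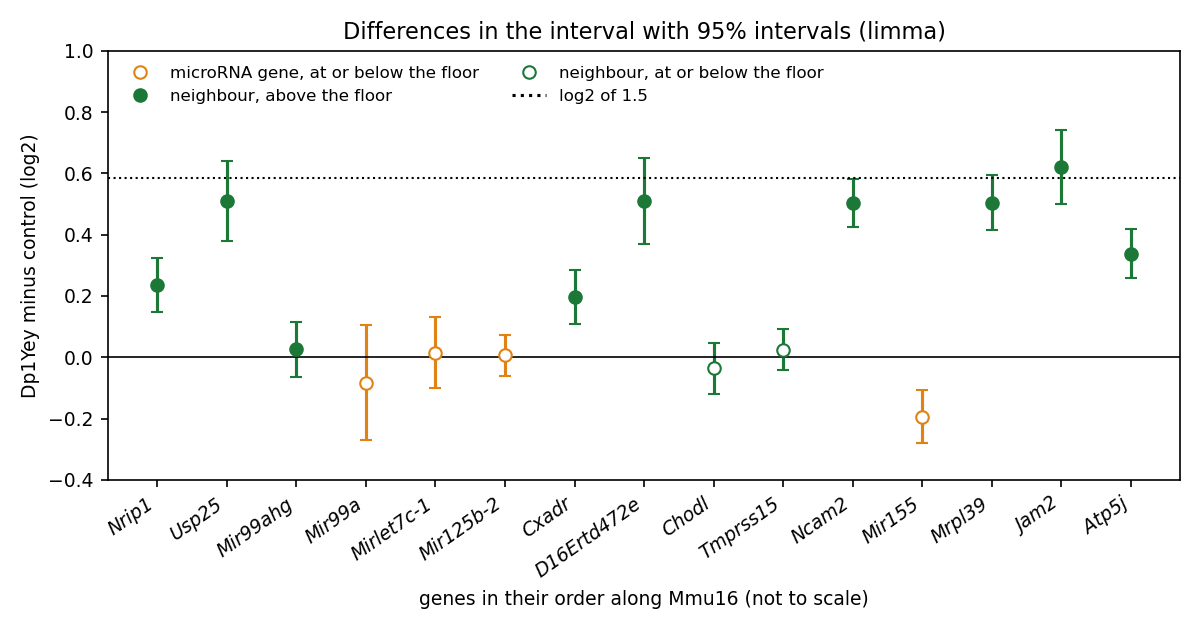
Difference between Dp1Yey and control (log2) with 95% intervals for the microRNA genes of the interval (orange) and their neighbours (green), in chromosome order, with filled points above the background floor and a dotted line at log2 of 1.5. The microRNA genes and the other genes at or below the floor lie near or under 0, and 8 of the 9 neighbours above the floor lie between 0.20 and 0.62.

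Across the whole interval, all 59 genes called higher were above the floor. Of 96 interval genes above the floor, 59 were called higher and 0 lower by limma, with a median difference of 0.32. Of the 43 interval genes at or below it that are not microRNA genes, 0 were called by limma and 0 by the rank statistic, 1 was higher and 3 lower at a nominal p under 0.05, and the median difference was -0.02. The 4 microRNA genes had a median of -0.04. Background signal understates a fold change at such levels, so the limits given for the 4 genes bound their measured signals, not their transcripts.

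The untriplicated copies of the cluster differed little as well. On Mmu9, Mir100 differed by -0.06, Mirlet7a-2 by -0.01 and Mir125b-1 by -0.11. On Mmu17, where 3 of 3 were above the floor, Mir99b differed by -0.08, Mirlet7e by -0.10 and Mir125a by -0.17 (-0.27 to -0.08, adjusted p = 0.0943). All 6 differences were below 0, but that of Mirlet7a-2 turned above 0 when arrays were centred on their medians or on olfactory receptor genes or quantile normalised again. By limma 0 of the 6 were called, 2 were lower at a nominal p under 0.05, and the rank statistic called 0. Over all genes 10.8% were lower at that p. Of the 10 let-7 and Mir98 genes, 2 were above the floor and 0 were called or had a nominal p under 0.05, with differences from -0.12 for Mirlet7i to 0.05 for Mirlet7f-2.

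Among all 298 microRNA genes, limma called 0 higher and 3 lower at an adjusted p under 0.05, which is 1.01% lower. Over all genes tested, 0.687% were called higher and 0.11% lower. The rank statistic, a version of the fold-change ranking used in the study, called 23 lower (7.72%) and 0 higher, against 0.993% and 2.46% of all genes. At a nominal p under 0.05, 81 (27.2%) were lower and 0 higher, against 10.8% and 8.75% of all genes. In 19 genes (6.38%) every Dp1Yey mouse was below every control mouse, and in 0 the reverse held, where over all genes these shares were 2.46% and 2.4%. Olfactory receptor genes leaned the same way, with 12.4% of the 1015 lower and 4 genes higher at a nominal p under 0.05 and 45 without overlap below the control mice, but limma called 0 of them and the rank statistic called 7 lower (0.69%), a smaller share than over all genes. Among genes above the floor the rank statistic called 23 of 103 microRNA genes lower (22.3%), 6 of 102 olfactory receptor genes (5.88%) and 162 of the 14957 others (1.08%). These classes were not matched for level. Above the floor the median level was 6.39 for microRNA genes, 5.74 for olfactory receptor genes and 7.96 for all genes.

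The 3 called genes were Mir6516, Mir483 and Mir155. Mir6516 (chr11:117077348-117077457) read 7.60, 7.54, 7.56, 7.59 and 7.58 in Dp1Yey and 7.78, 7.83, 7.70, 7.73 and 7.76 in control mice. The groups were tight and apart, with a difference of -0.19 (-0.26 to -0.12, adjusted p = 0.0216). It was not called without Dp1Yey replicate 2 or 3 (adjusted p = 0.0648 and 0.0727). Mir483 (chr7:142654924-142654996) lies within Igf2, the growth factor gene that hosts it on the same strand. It read 6.71, 6.78, 6.93, 6.79 and 6.84 in Dp1Yey and 7.32, 7.58, 7.03, 7.24 and 7.09 in control mice. Here too no mouse overlapped, and the difference of -0.44 (-0.63 to -0.25, adjusted p = 0.0417) was the farthest below 0 of all microRNA genes. The call was kept without control replicate 2, 3 or 5 and lost without any of the other 7 arrays (adjusted p from 0.0683 to 0.108). Igf2 itself differed by 0.10 (-0.23 to 0.44, adjusted p = 0.728). The mature strands of the called genes outside the interval, shown for identity, share no seed with any other measured gene.
miR-6516-5p (Mir6516): uUUGCAGUaacagguguggaca
miR-483-3p (Mir483): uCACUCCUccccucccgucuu
miR-483-5p (Mir483): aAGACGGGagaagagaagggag

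Next below the threshold were Mir679 (-0.37, adjusted p = 0.0507), Mir181d (-0.28, adjusted p = 0.0644) and Mir375 (-0.29, adjusted p = 0.0716), the last a microRNA known from pancreatic islets. Mir679 read from 5.94 to 6.19 in Dp1Yey and from 6.27 to 6.65 in control mice, without overlap. On the side of higher values the smallest p belonged to Mir692-1 (0.16, adjusted p = 0.281), Mir488 (0.06) and Mir382 (0.06), and Mir568, the microRNA gene of highest mean at 8.95, differed by 0.10 (-0.03 to 0.24). These did not pass at a nominal p under 0.05.

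The median difference of the 298 microRNA genes was -0.05, with 74.5% below 0, beside -0.01 and 57.9% over all genes and -0.03 and 75.1% over olfactory receptor genes. It was -0.027 after a new quantile normalisation, -0.0037 after median centring and -0.013 after olfactory centring, and the medians of all genes were then -0.009, 0.032 and 0.023. The differences followed level. Of the 298, 103 had a mean above the floor, 195 did not. Those above it had a median difference of -0.13, with 99 of 103 (96.1%) below 0 and 58 lower at a nominal p under 0.05, and those at or below it had a median of -0.02. By level, the median difference was 0.01 for the 69 genes under 4.5, -0.03 for 84 between 4.5 and 5, -0.06 for 42 between 5 and the floor, -0.10 for 35 between the floor and 6, -0.12 for 34 between 6 and 7, -0.19 for 24 between 7 and 8, and -0.20 for 10 over 8. The bin medians went down at each step.

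Olfactory receptor genes followed a like course. The 102 of them above the floor had a median difference of -0.10, with 93 (91.2%) below 0 and 41 lower at a nominal p under 0.05. Both medians above the floor moved with the scaling. That of microRNA genes was -0.10 after a new quantile normalisation, -0.08 after median centring and -0.09 after olfactory centring, and that of olfactory receptor genes -0.05, -0.05 and -0.06. The median of all genes above the floor was then -0.01, 0.04 and 0.03. On the deposited values the olfactory medians were -0.10 for 76 genes between the floor and 6, -0.10 for 19 between 6 and 7 and -0.15 for 5 between 7 and 8. Other genes had medians near 0 at the higher levels. The 14957 other genes above the floor had 1681 higher and 1605 lower at a nominal p under 0.05, and their medians were -0.06 between the floor and 6, -0.05 between 6 and 7, 0.00 between 7 and 8 and 0.02 over 8. Small nucleolar RNA genes, another class of short RNAs cut from longer ones, had a median of -0.07 over the 36 above the floor, with 22 below 0. A difference between microRNA genes and other genes of like level was not tested. RMA values of different probe sets are not a scale of abundance, so these levels order signals, not transcripts.

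**Figure D3:**
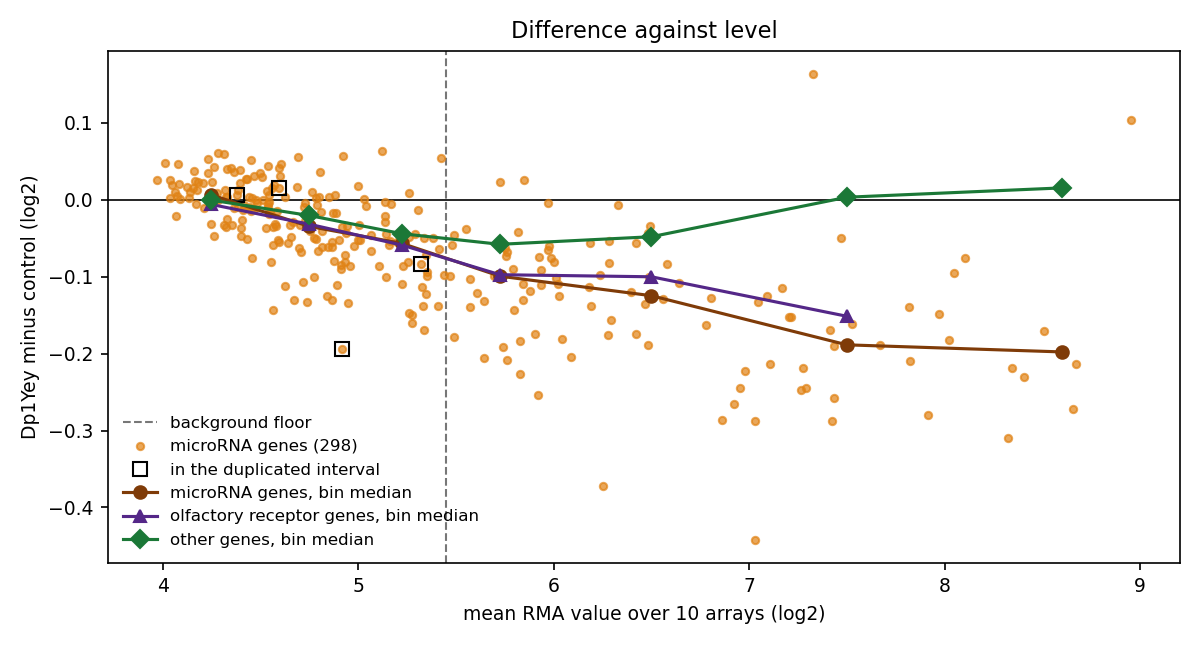
Difference between Dp1Yey and control (log2) against mean RMA value (log2) for the 298 microRNA genes (orange points, squares for the 4 in the interval), with bin medians of microRNA genes, olfactory receptor genes and all other genes in bins of at least 5 genes. MicroRNA and olfactory medians fall to -0.19 and -0.15 between 7 and 8, where other genes stand at 0.00.

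The shift was followed array by array. The median deviation of the microRNA genes above the floor from their control means was -0.15, -0.16, -0.13, -0.17 and -0.08 in Dp1Yey replicates 1 to 5 and 0.03, 0.13, -0.07, 0.00 and -0.09 in control replicates 1 to 5. Control replicates 3 and 5 thus lay within the range of the Dp1Yey mice or just above it, and control replicate 2 stood highest. For olfactory receptor genes above the floor the deviations ran from -0.13 to -0.06 in Dp1Yey and from -0.07 to 0.11 in control mice, again with control replicate 2 highest. Other genes above the floor stayed between -0.02 and 0.00 in Dp1Yey and between -0.03 and 0.03 in control mice.

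The arrays themselves differed along with this. The median over all probe sets was 6.33 ± 0.023 in Dp1Yey and 6.38 ± 0.038 in control mice, and the interquartile range was 3.51 ± 0.027 and 3.46 ± 0.042 (SD, n = 5 each). Control replicate 2 had the highest median (6.44) and the narrowest range (3.40). With the interquartile range as a covariate, the median difference of the 103 genes above the floor was -0.05 with 74 below 0, that of olfactory receptor genes above it was -0.02, 0 microRNA genes were called by limma, and Mir483 differed by -0.24 (adjusted p = 0.421). Without control replicates 1 and 2 that median was -0.09 with 93 below 0, and 1 gene was called.

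**Figure D4:**
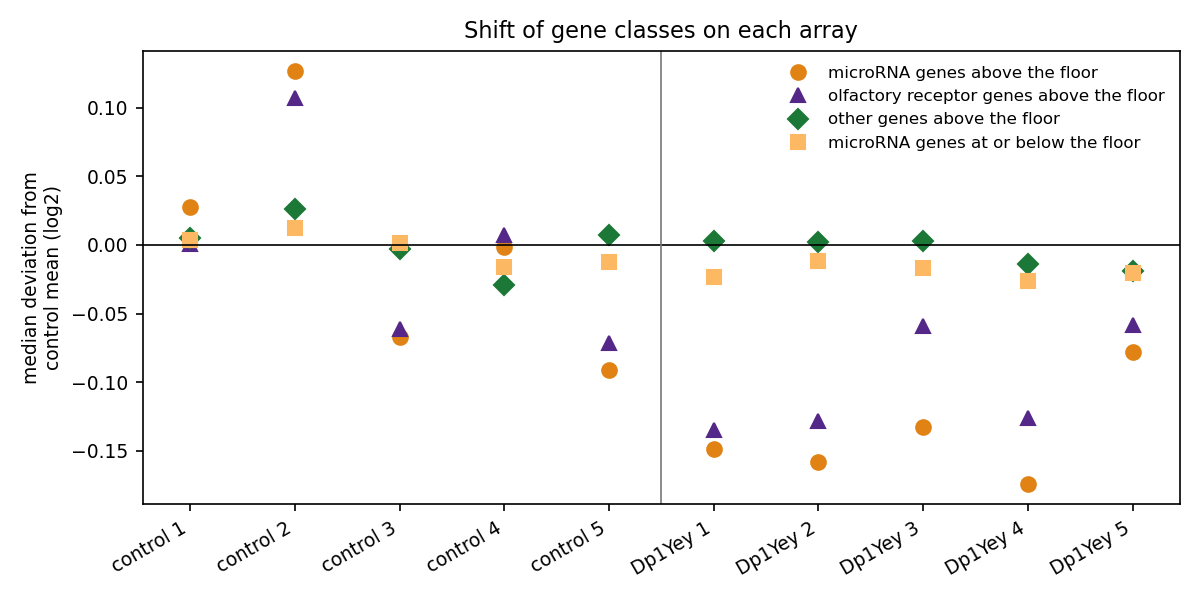
Median deviation from the control mean (log2) on each of the 10 arrays for microRNA genes above the background floor (circles), olfactory receptor genes above it (triangles), other genes above it (diamonds) and microRNA genes at or below it (squares). Circles and triangles move together, from 0.13 and 0.11 in control replicate 2 to -0.17 and -0.13 in Dp1Yey replicate 4, while diamonds stay within 0.03 of 0.

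The base composition of the hairpin went with level and difference alike. Hairpins were matched in the RefSeq table for 258 genes (86.6%), and these were ordered by their content of G and C and divided into 3 groups of 86. In the group of lowest content (28.4% to 43.9%) the median level was 4.41, 3 genes were above the floor and the median difference was 0.00, with 34 below 0. In the middle group the level was 4.90, 17 were above the floor and the median difference was -0.05, with 71 below 0. In the group of highest content (52.1% to 69.2%) the level was 5.95, 62 were above the floor and the median difference was -0.11, with 84 below 0. Across the 258 genes Spearman's rho was 0.787 between composition and level and -0.736 between composition and difference. Between level and difference rho was -0.739, and composition was not separated from level. These are descriptions across genes that share the same 10 arrays and are not independent. As examples, Mir568 at 31.3% differed by 0.10 and Mir375 at 67.2% by -0.29, although Mir692-1 at 62.4% had a value of 0.16. Mir568 went against the order of composition and level, with the highest mean of all microRNA genes at 8.95.

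**Figure D5:**
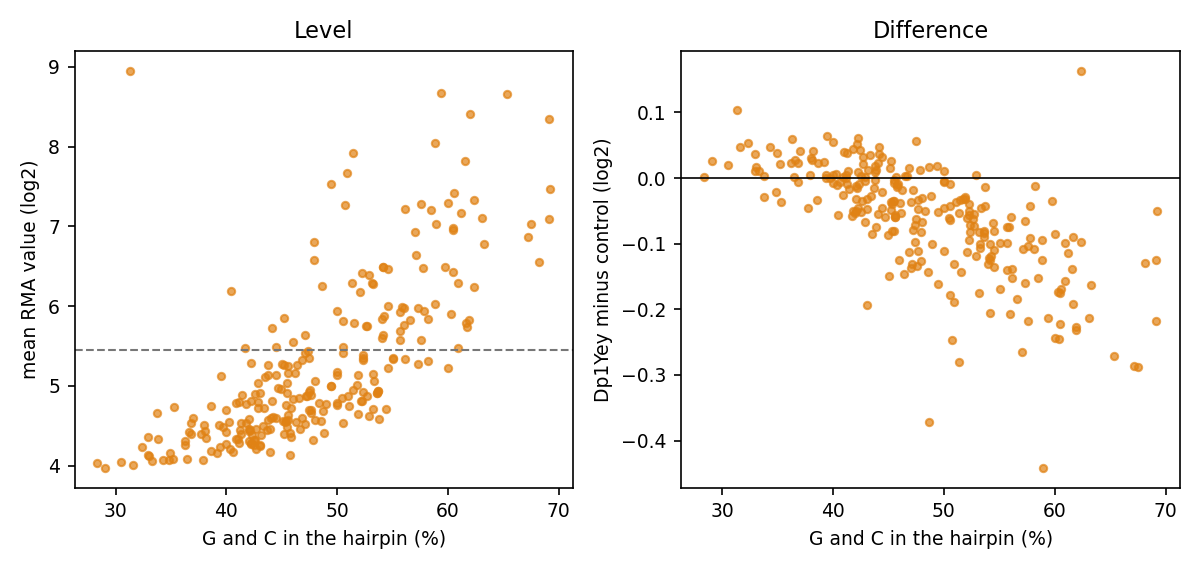
Share of G and C in the hairpin (%) against mean RMA value (log2, left, dashed line at the background floor) and against the difference between Dp1Yey and control (log2, right) for 258 microRNA genes, a point per gene. Genes of high content have higher signals and differences further below 0 (rho 0.787 and -0.736).

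MicroRNAs known from brain and from other tissues were set side by side. Of 23 genes of brain microRNAs, 16 (69.6%) were above the floor, against 6 of 29 (20.7%) for microRNAs of muscle, liver, blood, epithelia or embryo. The share was 34.6% over all microRNA genes and 76.0% over all genes. The lists were not matched for hairpin composition, which went with level. Differences in both lists leaned the same way, with 21 of 23 and 18 of 29 below 0. Their medians were -0.07 and -0.02, beside -0.05 over all microRNA genes and -0.01 over all genes. Limma called 0 in either list, with 8 and 4 lower and 0 higher at a nominal p under 0.05, and the rank statistic called 0 and 2 lower. Of all microRNA genes 27.2% were lower at that p and 7.72% by the rank statistic, and of all genes 10.8% and 0.993%. Mir212, induced by neuronal activity and the highest of the brain list, read 7.42 to 7.47 in Dp1Yey and 7.37 to 7.68 in control mice, a difference of -0.05. Mir134, known from dendritic spines, differed by -0.17 (adjusted p = 0.124), and Mir338, known from oligodendrocytes, by -0.15 (adjusted p = 0.212). Mir129-1 differed by -0.13, Mir138-1 by -0.14 and Mir138-2, from a second locus of the same mature microRNA, by -0.04. Mir124a-2, a locus of the neuronal miR-124, differed by -0.11 and Mir9-1 by -0.06. Above 0 lay Mir124a-3, another miR-124 locus with a mean below the floor, at 0.05, and Mir137 at 0.03. Among the other-tissue genes Mir194-2 and Mir194-1 differed by -0.18 and -0.25.

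Of the 3 vascular genes, Mir143, known from smooth muscle, differed by -0.25 (adjusted p = 0.0748), Mir145a by -0.13 and the endothelial Mir126a by -0.04, and the last turned to 0.01 when arrays were centred on their medians and to 0.00 on olfactory receptor genes. Mir145a and Mir126a, at means of 4.74 and 4.40, were below the floor. Egfl7, the endothelial host of Mir126a, differed by 0.00 (adjusted p = 0.987). The rank statistic called Mir143 lower and neither of the others.

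The imprinted Dlk1-Dio3 region on Mmu12 holds a long run of microRNA genes. Between Meg3 and Dio3 lay 40 of them, 14 above the floor. All 14 differed in the negative direction, from -0.37 for Mir679 to -0.06, with a median of -0.15, beside -0.13 over the 89 other microRNA genes above the floor. Limma called 0, with 9 lower at a nominal p under 0.05, and the rank statistic called 3. Of the other 89, 49 were lower at that p and the rank statistic called 20. Of genes above the floor that are neither microRNA nor olfactory receptor genes, the shares were 10.7% and 1.08%. Mir341 and Mir667, among the brightest, differed by -0.21 and -0.23. The long maternal transcripts of the region leaned the same way without passing the test, Rian by -0.25 (-0.38 to -0.11, adjusted p = 0.0936) and Meg3 by -0.21 (adjusted p = 0.285). The paternal genes Dlk1 and Rtl1 differed by -0.38 (adjusted p = 0.229) and -0.14 (adjusted p = 0.0595).

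The genes that host microRNAs had a median difference of 0.00. A measured gene on the same strand enclosed 96 of the microRNA genes, and these hosts numbered 76, of which 68 were above the floor. By limma 0 hosts were called, with 6 higher and 8 lower at a nominal p under 0.05, and the rank statistic called 2 lower. Over all genes, 8.75% were higher and 10.8% lower at that p, and 0.993% were lower by the rank statistic. Of the 76 hosts, 39 were below 0. For the 36 enclosed microRNA genes above the floor the median difference was -0.12, against 0.01 for their 30 hosts, and for the 67 above the floor with no measured host it was -0.14. Mir128-2 differed by -0.18 within Arpp21, which differed by 0.09, and Mir125a by -0.17 within Spaca6, which differed by 0.01. Levels were not matched, with means of 5.83 for Mir128-2 and 9.66 for Arpp21, and of 5.91 for Mir125a and 6.97 for Spaca6. Genes that are neither microRNA nor olfactory receptor genes had medians of -0.05 between 6 and 7, 0.00 between 7 and 8 and 0.02 over 8. A difference between microRNA genes and their hosts apart from level was not tested. Mir338 at -0.15 and its host Aatk at -0.09 lay closer together. Mir100hg, the host of the Mmu9 cluster, differed by -0.17 (adjusted p = 0.188).

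Markers of the choroid plexus had lower means in Dp1Yey without passing the test, which is given here beside Mir204 and Mir211, microRNAs of pigmented and choroid epithelia that lie in the ion channel genes Trpm3 and Trpm1. Mir211 read 7.08 to 7.22 in Dp1Yey and 7.23 to 7.57 in control mice, a difference of -0.22 (adjusted p = 0.0887), and Mir204 differed by -0.14 (adjusted p = 0.0958), both without overlap and both named after their values were seen. Mir204, at a mean of 4.56, was below the floor. Its host Trpm3 differed by -0.21 (adjusted p = 0.229), and Trpm1, host of Mir211 and below the floor at 5.25, by -0.04 (adjusted p = 0.537). All 5 choroid plexus markers were measured above the floor, with differences from -1.57 for Ttr to -0.46 for Clic6. Clic6 itself lies in the duplicated interval. Limma called 0 of the 5 markers. Beside 10.8% and 0.993% of all genes, 3 of the markers were lower at a nominal p under 0.05 and 3 by the rank statistic. Their median deviation from the control mean ran from -0.89 to -0.28 in Dp1Yey and from -0.92 to 1.04 in control mice, so control replicate 2, at -0.77, lay among the Dp1Yey mice and control replicate 3, at -0.92, below all of them. In control replicates 1 to 5, Mir211 read 7.38, 7.57, 7.40, 7.35 and 7.23, and Mir204 read 4.59, 4.72, 4.60, 4.68 and 4.59. In whole tissue, fewer cells of a type and less RNA per cell cannot be told apart. The part of choroid plexus in these differences was not tested.

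The machinery that makes and uses microRNAs gave no call by limma. Of 29 genes measured, 28 were above the floor. At a nominal p under 0.05, 3 were higher and 5 lower, and the rank statistic called 1, Dgcr8. Over all genes, 8.75% were higher and 10.8% lower at that p, and the rank statistic called 2.46% higher and 0.993% lower. The median difference of the 29 genes was -0.02, beside -0.01 over all genes. Dgcr8, the RNA-binding partner of Drosha, read 7.83, 7.81, 7.80, 7.95 and 7.66 in Dp1Yey and 8.07, 7.88, 8.06, 8.04 and 7.98 in control mice. All but control replicate 2 were above every Dp1Yey mouse, and the difference was -0.20 (-0.31 to -0.08, adjusted p = 0.101). It lies on Mmu16 proximal to the duplicated interval. Drosha differed by 0.09 (adjusted p = 0.332) and Dicer1 by -0.12 (adjusted p = 0.201). Tsn and Tsnax, which form the C3PO nuclease, differed by 0.16 and 0.17 (adjusted p = 0.12 and 0.129), and Prkra, a Dicer partner, by 0.13. The Argonaute genes Ago1, Ago2, Ago3 and Ago4 differed by -0.01, -0.03, 0.07 and -0.06, and Xpo5 by -0.02.

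Known targets of the triplicated microRNAs gave no call by limma. Of 9 measured miR-155 targets, 2 were higher at a nominal p under 0.05 and the rank statistic called 1 higher, with a median difference of -0.01. All genes gave 8.75% higher at that p and 2.46% higher by the rank statistic. Bach1, a transcriptional repressor that itself lies in the duplicated interval, read 7.85, 7.82, 7.83, 7.70 and 7.84 in Dp1Yey and 7.68, 7.67, 7.59, 7.56 and 7.54 in control mice. The groups did not overlap, and its difference of 0.20 had an adjusted p of 0.0513. Spi1, a myeloid transcription factor, differed by 0.20 (adjusted p = 0.0651), and Socs1 and Inpp5d by -0.12 and -0.01.

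Of 10 let-7 targets, 1 was higher and 2 lower at a nominal p under 0.05, with a median of -0.07 and 1 higher by the rank statistic. The shares over all genes were 8.75% higher and 10.8% lower at that p, and 2.46% and 0.993% by the rank statistic. Nras, a small GTPase, differed by 0.23 (adjusted p = 0.116), Lin28a, which blocks let-7 processing, by -0.12 and Hmga2 by -0.08. Among 5 miR-99 targets the median was -0.09, 1 was higher and 3 lower at a nominal p under 0.05, and the rank statistic called Fgfr3 lower. Fgfr3, a growth factor receptor, was below every control mouse in every Dp1Yey mouse, with a difference of -0.27 (-0.39 to -0.14, adjusted p = 0.0601), and Igf1r and Mtor differed by -0.16 and -0.09. The 5 miR-125 targets had a median of -0.11, with 2 lower at a nominal p under 0.05 and 0 by the rank statistic, and Bak1 and Bmf differed by 0.08 and -0.14.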

How the data were processed

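The authors deposited log2 values for 10 arrays in 1 table, made from scanner intensities by RMA, which corrects background, quantile-normalises probes and summarises them to 1 value per probe set. RMA, limma and mm10 are named in the submitters' processing notes. The arrays normalised together are not given in the sources used here, and scanner files were not used. Of 35556 probe sets, 21789 were annotated to a single symbol, 1621 to several and 12146 were not listed. Each gene took its probe set of highest mean, which gave 19938 genes, 19855 of them with a position on GRCm38.p6. Only 2 microRNA genes had more than 1 probe set.

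Dp1Yey was compared with control by limma 3.58.1 (R 4.3.3), using lmFit and eBayes with no covariate, and two-sided p-values were Benjamini-Hochberg adjusted over all 19938 genes. Groups came from the sample titles, and the code was tested on simulated data. The rank statistic ranked fold changes over all 25 pairs of arrays, averaged ranks after trimming a share of 0.25 at each end and called the tails at 0.025 and 0.975. The alternatives were quantile normalisation, centring on the array median or on olfactory receptor genes, the mean of probe sets, the replicate block, the interquartile range as a covariate, leaving out arrays, genes above the floor only, other floors, a trended robust prior and array weights. Hosts were measured genes that enclosed a microRNA gene on the same strand.

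The members, lists and alternatives were chosen with earlier results of these data known. Named were the interval genes and their copies on other chromosomes, called genes, the 6 of smallest p in each direction, the 8 of highest mean, up to 4 of smallest p per list, up to 10 brain microRNA genes, hosts and neighbours. Other genes named were chosen after their values were seen.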

Additional observations from a re-analysis of the deposited data

Results flagged for a closer look

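In 8 of 196 groups of 5 mice examined, a single mouse lay apart from the rest, its gap to the nearest mouse over 0.71 of the group's range, and chance alone flags about 1 in 20 groups. Among microRNA genes these were Mir99a in control replicate 2 (5.73, the other mice 5.19 to 5.33), Mir134 in Dp1Yey replicate 5 (7.21, the others 7.34 to 7.40) and Mir338 in Dp1Yey replicate 5 (7.29, the others 7.09 to 7.12). Aatk, the host of Mir338, was low in Dp1Yey replicate 4 (9.02, the others 9.15 to 9.18). In the interval, Usp25 was low in Dp1Yey replicate 5 (9.74, the others 9.99 to 10.03) and Bach1 in Dp1Yey replicate 4 (7.70, the others 7.82 to 7.85). Of the marker genes, Calb1 was low in control replicate 1 (10.81, the others 11.00 to 11.07) and Csf1r in control replicate 4 (9.50, the others 9.62 to 9.64).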

How the results depend on the processing

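The count of 3 called microRNA genes was 3 or 4 under quantile normalisation, both centrings, the mean of probe sets, genes above the floor, a trended robust prior and array weights. The genes in that count were not always the same. Mir483 was called by limma in each of these. Mir155 was not called with median or olfactory centring (adjusted p = 0.0673 and 0.0538) and is not among genes above the floor. Mir6516 was not called with the trended robust prior (adjusted p = 0.0525). The count was 0 with the interquartile range covariate, 1 without control replicates 1 and 2 and 23 by the rank statistic. Without single arrays the count of microRNA genes was 0 to 6 (0 without Dp1Yey replicate 2 or 3, 6 without control replicate 3). Over all genes, 83 were called higher and 3 lower without Dp1Yey replicate 2, and 65 and 5 without Dp1Yey replicate 3. Leaving out control replicate 3 gave 162 and 70. With the replicate block the count of microRNA genes was 0, and over all genes 90 were called higher and 4 lower. Mir155 (-0.19, adjusted p = 0.133), Mir483, Mir6516 and Cxadr then no longer passed, while Ttr passed. Samples of the same number had correlations of 0.062, 0.0088, 0.040, 0.218 and -0.327, taken on deviations from group means. The labels link such samples by a number alone, and these correlations cannot tell whether they share a litter or a batch. The cause of these changes was not tested.

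The median difference of the 298 genes was -0.027 with quantile normalisation, -0.0037 with median centring (all genes 0.032), -0.013 with olfactory centring and -0.020 with the interquartile range covariate. Genes above the floor numbered within 1.5 times the main count with floors at other percentiles. The rank statistic called 1 biogenesis gene against 0. Mir155 was not called with median centring (-0.15), olfactory centring (-0.16), the interquartile range covariate (-0.13), without control replicates 1 and 2 (-0.15) or by the rank statistic (-0.19), and ranged from -0.21 to -0.17 without single arrays. Mir6516 lost its call under 7 alternatives and Mir483 under 9.

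Values that did not pass turned sign as follows. Mir99a was 0.11 with the interquartile range covariate and 0.032 without control replicates 1 and 2. With that covariate Mir667 was 0.0067, Mir212 0.0012, Mir138-2 0.094, Mir9-1 0.037, Mir200c 0.0070, Mirlet7i 0.0098, Egfl7 0.093, Peli1 -0.030 and Cd3e 0.021. With median and then olfactory centring, Mirlet7a-2 was 0.037 and 0.028, Mir126a 0.010 and 0.0013, Chodl 0.010 and 0.0011, and Egfl7 0.044 and 0.035, while Mir138-2 was 0.0033 with the former. Mirlet7a-2 was 0.0025 with quantile normalisation. Mir138-2 and Egfl7 were 0.036 and 0.071 without control replicates 1 and 2, and 0.012 and 0.031 with array weights. Without single arrays the ranges crossed 0 for Mir99a (-0.12 to 0.010), Mirlet7c-1 (-0.010 to 0.048), Mir125b-2 (-0.011 to 0.020), Mirlet7a-2 (-0.032 to 0.019), Mir138-2 (-0.091 to 0.026), Spaca6 (-0.0054 to 0.043) and Egfl7 (-0.031 to 0.037). Most microRNA genes gave signals near background, where differences are understated.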
